A study of Mus musculus with 2 samples.

Results

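The fatty acid elongases and desaturases are the enzymes that lengthen newly made or dietary fatty acids and place unsaturated bonds in them. The 10 genes described here were taken by name: the elongases Elovl1, Elovl3, Elovl5 and Elovl6, the stearoyl-CoA desaturases Scd1, Scd2 and Scd3, and the fatty acid desaturases Fads1, Fads2 and Fads3. All 10 were matched by Entrez gene identifier among the 16174 genes listed in at least 1 of the 2 libraries. RNA was sequenced from brown adipose tissue, the heat-producing fat, of female C57BL/6 mice on chow for 45 weeks and 45 weeks old. The control library, D3BWT, came from mice of genotype D3Bfl/fl, with floxed D3B alleles and no Cre named. The knockout library, D3BKO, came from D3Bfl/fl-UCP1-Cre+/- mice, with the same floxed alleles and a Cre recombinase under the promoter of Ucp1. That promoter is active in brown adipocytes, so other cells of the tissue should keep the allele, though where the Cre acted was not measured. D3B is read as Dnmt3b, a DNA methyltransferase, from knowledge of the study.

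Each genotype had 1 library and the labels do not say how many mice it held, so there is no spread between animals and no p-value. Brackets after a ratio or a level hold its 95% interval from read counting, which leaves out every other source of error and takes each read as its own molecule. D3BWT held 9666528 expected counts and D3BKO 10068359. The sequencer lanes were 2 for D3BWT and 1 for D3BKO, so effects of lane, of the Cre and of losing D3B cannot be told apart. Dnmt3b had 15 counts in D3BWT and 7 in D3BKO (ratio 0.46, 0.16 to 1.20). This interval holds 1, so the label of D3BKO was not checked by its target. Ucp1, the defining gene of brown adipocytes, stood at 4987 and 4271 FPKM, and none of the 8 brown adipocyte markers examined was at 0 in either library.

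Elongases carry out the first step of a cycle in the endoplasmic reticulum that joins carbons from malonyl-CoA to an acyl-CoA. Elovl6 extends palmitate-length chains towards stearate, Elovl3 and Elovl1 act on long saturated and monounsaturated chains, and Elovl5 acts on polyunsaturated ones. The Scd enzymes turn saturated acyl-CoA into monounsaturated acyl-CoA, with oleate as the best known product, while Fads1 and Fads2 work with Elovl5 to make long polyunsaturated fatty acids from essential precursors. Fads3 lies in the same gene cluster and is known for acting on sphingoid bases. In brown fat, Elovl3 is known as a gene induced by cold, and Scd1 is among the most abundant transcripts of adipocytes.

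In D3BKO the desaturases Scd1, Scd2 and Fads3 and the elongases Elovl1, Elovl3 and Elovl6 were higher than in D3BWT, while Elovl5, Fads1 and Fads2 had counting intervals that held 1. Fads3 had the largest ratio, 1.92 (1.76 to 2.09), followed by Scd2 and Elovl3, each at 1.65, and Scd1 at 1.47. A gene was compared when it reached 1 FPKM (fragments per kilobase of transcript, scaled to library size) in either library, which 9 of the 10 members did. Scd3 did not. Of these 9, 6 had an interval above 1 and none had one below 1. Of all 11746 genes compared, 18.2% had an interval above 1 and 22.4% one below. Intervals narrow with more counts, and these shares were not matched for abundance. On the log2(FPKM + 1) scale, where a gene counts as past a fold when its interval also excludes 1, Fads3, Scd2 and Elovl3 passed 1.5-fold upwards and no member passed it downwards. Over all genes compared, 4.35% passed upwards and 3.41% downwards. The members and the gene lists below were chosen with earlier results of these data known, so their counts are no independent evidence. Rescaling D3BKO so that the FPKM totals were equal made the split over all genes at 1.5-fold 678 higher and 298 lower in place of 511 and 401, and Scd1 then also passed. No member was past 2-fold, against 0.902% of genes upwards and 0.673% downwards. The median log2 ratio (D3BKO over D3BWT) was 0.38 for the 9 members and -0.03 over all genes compared. Bulk tissue does not tell fewer cells of a type from less RNA per cell, which holds for each of these values.

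**Figure D1:**
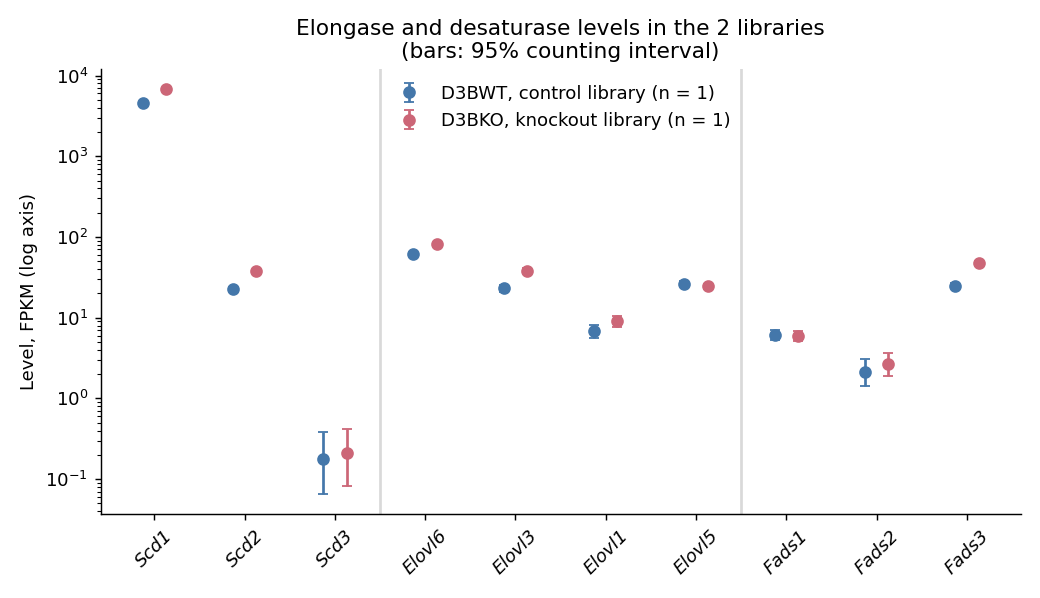
Level in FPKM (log axis) of each of the 10 genes in D3BWT (blue) and D3BKO (red), with 95% counting intervals as bars, grouped as Scd, Elovl and Fads genes. Scd1 lies far above the others at 4634 and 6827 FPKM, and Scd3 is near the floor at 0.18 and 0.21 FPKM.

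The stearoyl-CoA desaturases were dominated by Scd1 (Entrez gene 20249). It stood at 4634 FPKM (4614 to 4653) in D3BWT and 6827 FPKM (6804 to 6850) in D3BKO (ratio 1.473, 1.465 to 1.481). In read counts it was the top gene of both libraries, with 2.23% of all counts in D3BWT and 3.28% in D3BKO. By FPKM its rank moved from 5 to 2. On the log2(FPKM + 1) scale Scd1 was at 0.56, just short of 1.5-fold.

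Scd2 (20250), the paralog known from brain and from developing skin and liver, was at 22.8 FPKM in D3BWT and 37.6 FPKM in D3BKO. Its ratio was 1.65 (1.54 to 1.78). The ratio of Scd2 was 1.12 times that of Scd1 (1.04 to 1.20), an interval that leaves out how reads matching both genes were divided. Whether this small difference comes from that division was not tested. Scd1 was 182 times as high as Scd2 per length in D3BKO and 204 times in D3BWT. Scd3 (30049), known from skin, had 6.06 and 7.21 expected counts and levels of 0.18 and 0.21 FPKM. Its ratio of 1.17 (0.33 to 4.12) leaves a difference in either direction undetectable at this depth. Scd4, the remaining Scd gene of the mouse, had 2.91 counts in D3BWT and 1 in D3BKO.

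The counts of Scd1, Scd2 and Scd3 were not whole, as happens where reads that match more than 1 gene are divided among them. Over the 3 genes together the counts came to 216522 in D3BWT and 332307 in D3BKO, whole to within 0.05 in both. The summed ratio, which does not depend on how those reads were divided, was 1.473 (1.466 to 1.482). Within the sum Scd1 held 99.4% in each library, and Scd2 held 0.551% in D3BWT and 0.617% in D3BKO.

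The coding sequences of these genes make such sharing visible. In the GENCODE M21 transcripts paired with the files' RefSeq identifiers, the coding sequence of Scd1 was 90.4% identical to that of Scd2 and 91.5% to that of Scd3. The longest identical run was 147 bases between Scd1 and Scd2 and 185 bases between Scd1 and Scd3. Of the 50-base windows of the whole Scd2 transcript, 2.68% (145 of 5406) occur unchanged in Scd1, and of those of Scd3 4.85% (167 of 3440). Of those of Scd1, 3.03% (145 of 4783) occur in Scd2 and 3.49% (167 of 4783) in Scd3. Scd1 had 215324 counts in D3BWT, where Scd2 had 1192.11. The sources used here do not give the read length. The stretch below lies at coding bases 536 to 655 of Scd1, 545 to 664 of Scd2 and 548 to 667 of Scd3. It is shown because a read inside it matches Scd1 and Scd2 equally, and matches Scd3 equally unless it reaches the bases that differ. Capitals mark the 3 bases of Scd3 that differ from Scd1, all near the end of the stretch. Scd2 has 0 differences here.
Scd1: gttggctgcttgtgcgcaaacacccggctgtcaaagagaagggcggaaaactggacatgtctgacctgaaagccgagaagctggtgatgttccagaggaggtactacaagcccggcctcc
Scd2: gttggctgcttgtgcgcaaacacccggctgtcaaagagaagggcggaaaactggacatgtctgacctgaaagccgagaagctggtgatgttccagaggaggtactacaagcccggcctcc
Scd3: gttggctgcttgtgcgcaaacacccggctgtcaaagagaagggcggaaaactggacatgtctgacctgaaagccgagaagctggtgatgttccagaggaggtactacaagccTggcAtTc
How much of the Scd2 and Scd3 counts came from reads of Scd1 was not tested, and the intervals of their ratios leave this out.

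Among the elongases Elovl6 (170439) was the most abundant, at 62.4 FPKM (60.3 to 64.4) in D3BWT and 81.3 FPKM (79.0 to 83.6) in D3BKO. The ratio was 1.30 (1.25 to 1.36). Elovl3 (12686) stood at 23.2 FPKM (21.0 to 25.5) in D3BWT and 38.2 FPKM (35.5 to 41.2) in D3BKO (ratio 1.65, 1.46 to 1.87). Elovl3 was therefore higher by more than Elovl6, with a ratio of ratios of 1.27 (1.11 to 1.44). Elovl1 (54325), the broadly expressed enzyme of very long saturated chains, was at 6.84 and 8.99 FPKM from 114 and 156 counts (ratio 1.31, 1.03 to 1.69). Its difference from Elovl6 was not detectable, at a ratio of ratios of 1.01 (0.79 to 1.29). Elovl1 overlaps Cdc20, a cell division gene, in the RefSeq table of GRCm38.p6, and Cdc20 had 2 counts in D3BWT and 19 in D3BKO. Since the counting is not said to use strand, reads of such a pair may not be told apart, which leaves the small difference of Elovl1 uncertain. Elovl3 overlaps Pitx3, a homeobox gene, which had 6 counts in each library. The other overlapping genes of the members in that table were not listed in either library.

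Elovl5 (68801) did not share the higher level of its relatives. It was at 26.4 FPKM (24.5 to 28.4) in D3BWT and 24.5 FPKM (22.7 to 26.4) in D3BKO, and the ratio of 0.93 (0.83 to 1.03) held 1. Against Elovl6 its ratio of ratios was 0.71 (0.64 to 0.80), and against Elovl3 0.56 (0.48 to 0.66). Elovl5 was the third most abundant member in D3BWT and the sixth in D3BKO, passed there by Fads3, Elovl3 and Scd2. In D3BWT the counting intervals of neighbours in the order Elovl5, Fads3, Elovl3 and Scd2 overlapped, so these 4 did not differ beyond counting error from 1 to the next. In D3BKO Elovl3 and Scd2 overlapped, and every other pair of neighbours among the members stood apart. Elovl1 and Fads1 overlapped in D3BWT alone.

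**Figure D2:**
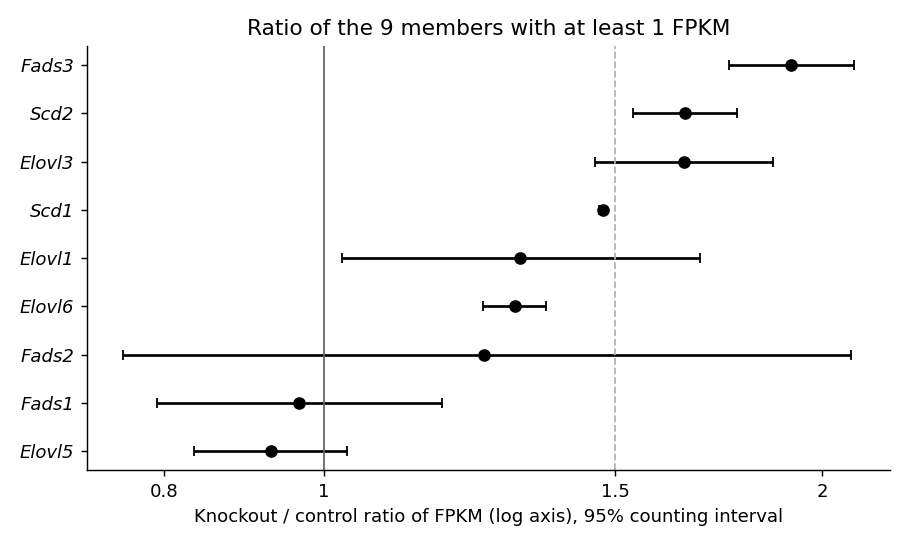
Ratio of FPKM in D3BKO to that in D3BWT (log axis) for the 9 members with at least 1 FPKM, with 95% counting intervals, the dashed line marking 1.5-fold. Fads3 at 1.92 and Scd2 and Elovl3 at 1.65 lie right of the dashed line, and the intervals of Fads2, Fads1 and Elovl5 cross 1.

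The Fads genes differed among themselves although they are neighbours on chromosome 19, listed in the order Fads3, Fads2, Fads1 in the RefSeq table of GRCm38.p6. Fads3 (60527) was at 25.1 FPKM (23.3 to 26.9) in D3BWT and 48.0 FPKM (45.7 to 50.5) in D3BKO, from 781 and 1558 counts. Fads1 (76267), which places the bond nearest the carboxyl end of long polyunsaturated chains, was at 6.18 FPKM in D3BWT and 5.97 FPKM in D3BKO (ratio 0.97, 0.79 to 1.18), and its log2 ratio lay on either side of 0 depending on how the libraries were scaled. Fads2 (56473), which catalyses the first desaturation of the essential fatty acids, was at 2.13 and 2.66 FPKM from 30 and 39 counts (ratio 1.25, 0.76 to 2.08). The ratio of Fads3 was 1.99 times that of Fads1 (1.61 to 2.45). Against Fads2 the ratio of ratios was 1.53 (0.95 to 2.49), a difference not detectable at the depth of Fads2. Fads3 thus made up 14.3% of the summed FPKM of the members other than Scd1 in D3BWT and 19.4% in D3BKO. With its log2 ratio of 0.91, Fads3 ranked 162 from the top among the 11746 genes compared, while Scd2 ranked 357, Elovl3 360 and Scd1 594.

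Upstream sequences were at hand in RefSeq promoters of GRCm38.p6 for 6 of the 10 members: Elovl1, Elovl5, Elovl6, Fads2, Fads3 and Scd3. They are shown for Fads3, the member with the largest ratio, for its neighbour Fads2, for Elovl6 and for the almost silent Scd3, because Dnmt3b, as which D3B is read here, encodes an enzyme that methylates CpG sites. Methylation itself was not measured in these files. Each line gives the 250 bases before the annotated start, read in the direction of the gene, and capitals mark CpG sites. The windows are chr19:10041298-10041547 on the plus strand for Fads3, chr19:10101504-10101753 on the minus strand for Fads2, chr3:129532136-129532385 on the plus strand for Elovl6 and chr19:44203038-44203287 on the plus strand for Scd3.
Fads3: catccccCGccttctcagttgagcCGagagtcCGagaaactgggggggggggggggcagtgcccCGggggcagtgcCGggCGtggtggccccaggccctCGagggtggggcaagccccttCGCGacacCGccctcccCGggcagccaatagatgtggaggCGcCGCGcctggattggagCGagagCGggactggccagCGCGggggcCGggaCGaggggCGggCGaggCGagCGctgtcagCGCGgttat
Fads2: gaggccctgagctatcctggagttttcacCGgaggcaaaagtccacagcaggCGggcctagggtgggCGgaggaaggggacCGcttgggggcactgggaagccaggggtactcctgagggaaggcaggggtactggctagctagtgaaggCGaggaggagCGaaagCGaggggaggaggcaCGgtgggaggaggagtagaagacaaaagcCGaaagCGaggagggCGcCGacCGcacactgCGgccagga
Elovl6: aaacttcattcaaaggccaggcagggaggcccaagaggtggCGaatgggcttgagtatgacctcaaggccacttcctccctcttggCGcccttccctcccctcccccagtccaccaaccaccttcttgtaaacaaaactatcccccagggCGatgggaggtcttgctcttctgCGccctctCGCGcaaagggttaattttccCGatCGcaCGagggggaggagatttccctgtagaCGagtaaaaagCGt
Scd3: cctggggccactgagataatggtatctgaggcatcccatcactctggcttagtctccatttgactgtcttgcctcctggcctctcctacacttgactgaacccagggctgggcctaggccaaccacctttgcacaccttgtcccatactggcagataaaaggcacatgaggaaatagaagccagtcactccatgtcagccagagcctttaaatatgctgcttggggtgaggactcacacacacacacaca
The window of Fads3 held 26 CpG sites, more than 90.3% of the 32536 distinct promoter windows of this length. Fads2 held 14, Elovl6 11 and Scd3 none, against a median of 6, and 7.80% of all windows held none. Fads3 also had 2 CCAAT boxes (CCAAT, either strand) and 2 GC boxes (GGGCGG, either strand), motifs found in 33.8% and 33.0% of all windows. Fads2 had 1 GC box and no CCAAT box, and neither motif was found in the windows of Elovl6 and Scd3. Among the windows not shown, that of Elovl5 held 14 CpG sites, 2 CCAAT boxes and no GC box. Elovl1 had 2 windows. The first held 18 CpG sites, 1 CCAAT box and 5 GC boxes, and the second 5 CpG sites, 2 GC boxes and no CCAAT box. The sterol regulatory element TCACCCCAC, searched on both strands and present in 0.501% of windows, was not found in any of the members' windows. An E-box (CACGTG), present in 6.04% of all windows, was found only in the window of Elovl5, which held 1. The TATA box (TATAAA, either strand), present in 12.3% of all windows, was found in none of them. These matches describe the letters of the windows and say nothing of binding.

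**Figure D3:**
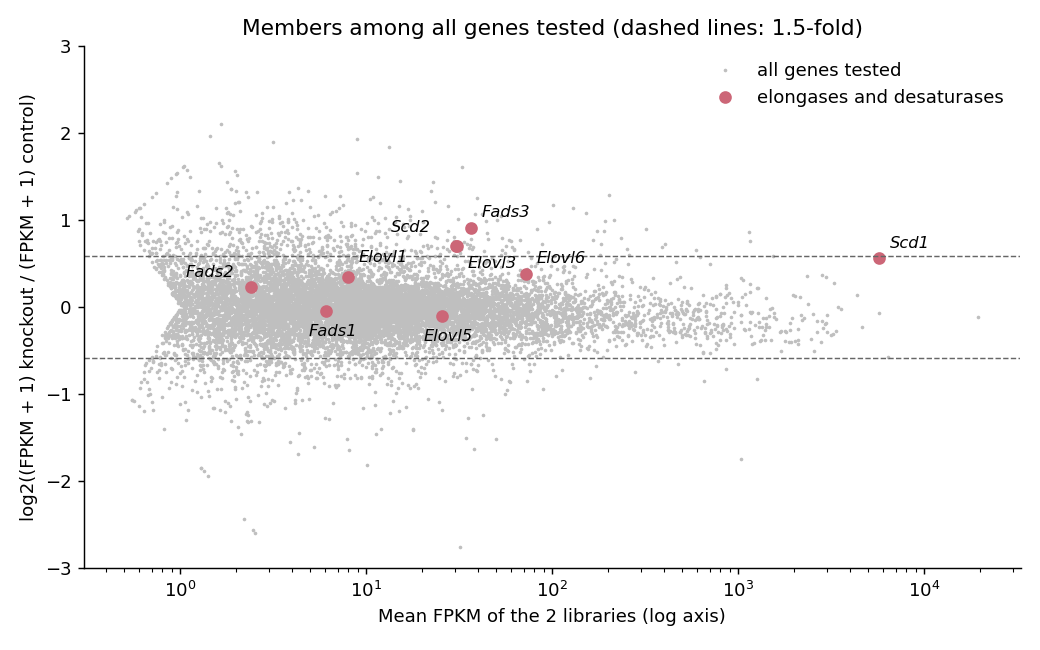
Mean FPKM of the 2 libraries (log axis) against the log2 ratio of FPKM + 1 for all 11746 genes compared (grey) and the 9 members (red), the dashed lines marking 1.5-fold. Fads3, Scd2 and Elovl3 lie above the upper line at 0.91, 0.70 and 0.70, and Scd1 lies just under it at 0.56.

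The elongases and desaturases depend on partners that were measured in the same libraries. The remaining steps of the elongation cycle are a reductase (Hsd17b12), dehydratases (Hacd1 to Hacd4) and a final reductase (Tecr). None of the 6 such genes compared was past 1.5-fold in either direction, and their median log2 ratio was 0.09. Hacd2 was higher, 31.6 FPKM in D3BWT and 42.2 FPKM in D3BKO (ratio 1.34, 1.24 to 1.45), and Hacd3 had a ratio of 0.92 (0.78 to 1.08). Tecr was at 191 FPKM in D3BWT and 201 FPKM in D3BKO, and Hsd17b12 at 164 and 177 FPKM, levels above those of all elongases.

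Desaturases draw electrons from cytochrome b5 and its reductases. None of the 5 genes of this electron supply was past 1.5-fold, and the median log2 ratio was 0.19. Cyb5a was at 291 FPKM in D3BWT and 342 FPKM in D3BKO (ratio 1.17, 1.11 to 1.25). Cyb5r3, the main reductase, had a ratio of 1.24 (1.15 to 1.33), whereas Cyb5r1 was lower with 0.76 (0.65 to 0.88). The ratios of these carriers were thus smaller than the 1.47 of Scd1.

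Several genes that supply the substrates were higher in D3BKO. Of 8 such genes 4 passed 1.5-fold upwards and none passed it downwards, with a median log2 ratio of 0.63. These were Acly, the ATP citrate lyase that forms acetyl-CoA (ratio 1.86), Acaca, which makes malonyl-CoA (1.83), Fasn, which makes palmitate (1.82), and Me1, a source of NADPH (1.71). Slc25a1, the citrate carrier, had a ratio of 1.42 (1.35 to 1.48). Mcat, an enzyme of mitochondrial fatty acid synthesis, was lower at 0.75 (0.67 to 0.84). This list was written with the direction of these genes already known, so its count is no independent evidence.

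Regulators known to act on these genes were also measured. Of 19 compared, none was past 1.5-fold, 6 had a log2 ratio above 0 and 13 below, and the median was -0.11. Over all 11746 genes compared 5393 lay above 0 and 6316 below. With equal FPKM totals the median of the regulators was -0.03, with 7 above and 12 below. Srebf1, whose product activates lipogenic genes, was at 49.9 FPKM in D3BWT and 45.7 FPKM in D3BKO (ratio 0.92, 0.86 to 0.97). Mlxipl, which encodes the carbohydrate-responsive factor ChREBP, had a ratio of 0.91 (0.86 to 0.96). Nr1h3 and Nr1h2, the liver X receptors, had ratios of 0.89 (0.81 to 0.97) and 0.77 (0.69 to 0.87). Usf1, a factor that binds E-boxes of lipogenic genes, had a ratio of 0.79 (0.67 to 0.94). Intervals above 1 were found for Insig2, which holds back the processing of SREBP proteins (1.20, 1.04 to 1.39), for the fatty acid receptor gene Ppara (1.15, 1.10 to 1.19) and for Thrsp, a lipogenic gene of fat and liver (1.08, 1.06 to 1.10). The protein forms and activities of these factors were not measured.

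**Figure D4:**
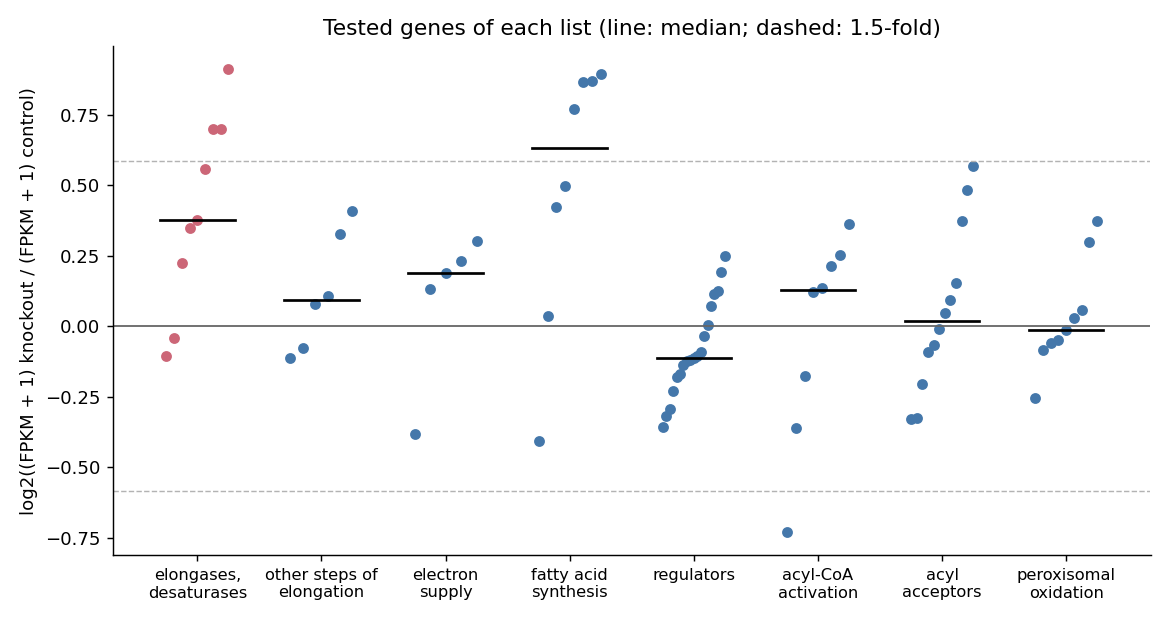
Log2 ratio of FPKM + 1 (knockout over control) of each gene compared, by list, with the list's median as a line and 1.5-fold as dashed lines. The medians are 0.38 for the elongases and desaturases, 0.63 for fatty acid synthesis and -0.11 for the regulators.

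Several relatives of the members were scarce in this tissue. Elovl2 was not listed in D3BWT and had 4 counts in D3BKO. Elovl7 had 2 and 1 counts, and Elovl4, known from retina and skin, had 25 and 13 counts with a ratio of 0.51 (0.24 to 1.03). Fads6 had 13 counts at 1.12 FPKM in D3BWT and was not listed in D3BKO, and the counting interval of its ratio reached up to 0.315. The sphingolipid desaturase Degs1, by contrast, was at 34.7 FPKM in D3BWT and 42.2 FPKM in D3BKO (ratio 1.22, 1.10 to 1.35). Its paralog Degs2 was at 1.28 and 1.77 FPKM (ratio 1.38, 0.90 to 2.14).

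Marker genes of several cell types differed between the libraries together with the members. The 8 brown adipocyte markers all had log2 ratios below 0, and 7 of the 8 did with the length trend removed. Their summed level was 18710 FPKM in D3BWT and 14566 FPKM in D3BKO, with Cox8b alone at 7608 and 5132 FPKM. Only 1, Dio2, passed 1.5-fold downwards, and none did with equal FPKM totals or a pseudocount of 5. Of 8 white adipocyte markers compared 7 passed 1.5-fold upwards, with summed levels of 384 and 796 FPKM and Hoxc9 at 0 in both libraries. Hoxc8, which did not pass, had a ratio of 0.89 (0.61 to 1.28). Of 7 macrophage markers 6 passed 1.5-fold upwards, with sums of 231 and 374 FPKM. With a pseudocount of 5, which shrinks the ratios of low genes further, 2 of the 7 passed. The 6 fibroblast markers summed to 246 and 323 FPKM, with 2 past 1.5-fold upwards and 1 with a pseudocount of 5 or with a trend removed. The 6 endothelial markers were all below 0, with sums of 161 and 120 FPKM and 3 past 1.5-fold downwards, in place of which 1 passed with equal FPKM totals or a pseudocount of 5. The part of these cell types in the differences of the members was not tested. Markers of skin and sebaceous glands, where Scd3 and Elovl3 are also made, summed to 36.2 FPKM in D3BWT and 23.3 FPKM in D3BKO, with Krt1 at 0 in both and Mc5r and Awat2 at 0 in D3BWT. Of the 4 compared, Krt5 (ratio 0.58) and Krt14 (0.43) passed 1.5-fold downwards, and 1 of the 4 did so with equal FPKM totals. Markers of Schwann cells and myelin, where Scd2 is also made, summed to 51.1 and 66.8 FPKM, most of it from Pmp22 with a ratio of 1.45 (1.31 to 1.61). Mbp had a ratio of 0.96 (0.84 to 1.09), and Mag was at 0 in D3BWT. Sox10 had 10 counts in D3BWT and 5 in D3BKO, and Prx had 13 and 6, with ratio intervals that held 1. Skeletal muscle markers summed to 2.41 and 2.99 FPKM with Ckm and Myh7 at 0 in both libraries. Acta1 alone was higher there, at 1.38 and 2.71 FPKM, while Mylpf was at 0.74 and 0.28 FPKM and Myh1, Myh4 and Tnnt3 were not listed in D3BKO. Lymphocyte markers summed to 1.68 and 0.98 FPKM. Red blood cell markers summed to 6047 and 5904 FPKM.

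**Figure D5:**
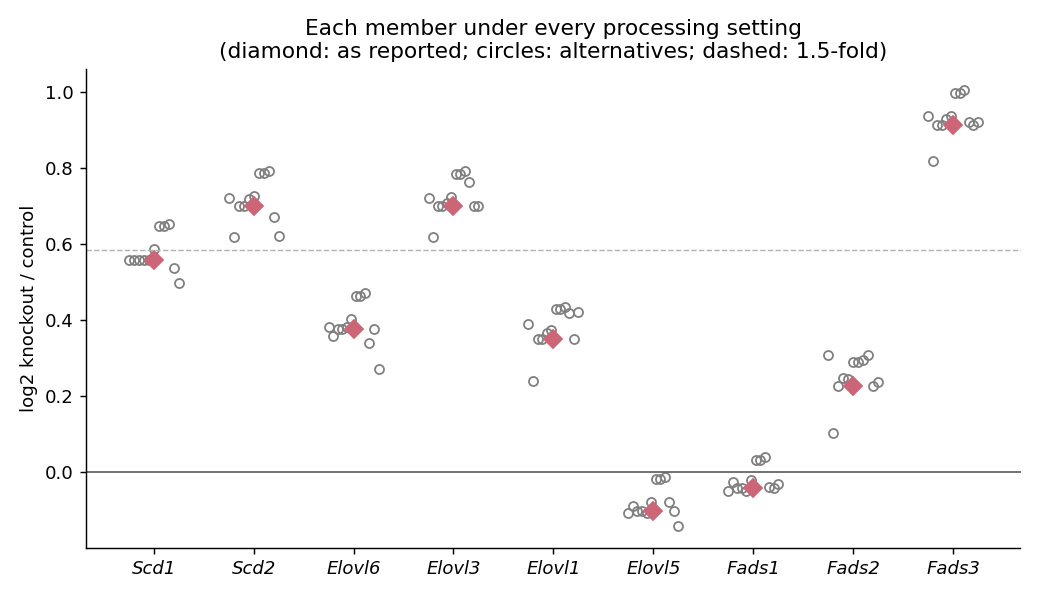
Log2 ratio of knockout to control for the 9 members with at least 1 FPKM as reported (diamond) and under each alternative way of processing (open circles), with 1.5-fold as a dashed line. Fads3, Scd2 and Elovl3 stay above the dashed line wherever they have a value, Scd1 crosses it, and Fads1 lies on both sides of 0.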

How the data were processed

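The deposited tables give, per the file headers, an FPKM value and an expected count for every listed Entrez gene, with its RefSeq transcripts and their length. RSEM and the mouse build mm9 are named in the submitters' processing notes. The sources used here do not name the aligner. The deposited expected counts divide reads that match several genes, and FPKM values scale them by length and library size. Strand is not mentioned in the protocol, so reads of overlapping antisense genes may not be separated. Unlisted genes were taken as 0. Gene symbols were looked up in the RefSeq table of GRCm38.p6 for 16134 of 16174 genes. This build differs from mm9, so coordinates are given only for RefSeq sequence.

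With 1 library per group no test was made. Each ratio divides FPKM in D3BKO by FPKM in D3BWT, with no pseudocount, and its 95% interval comes from the rounded counts by the exact conditional (Clopper-Pearson) method. Ratios of ratios between members, 36 pairs of 9 members of which 20 had an interval that excluded 1, have intervals from the log-normal approximation to counts. Levels have exact Poisson intervals. The log2 scale adds a pseudocount of 1, which understates differences of low genes. The upper limit for a gene with a count of 0 was set at 3 counts, which is 0.310 CPM in D3BWT and 0.298 CPM in D3BKO. Counts within 0.05 of a whole number were taken as whole. The steps were tested on simulated counts that held counting error alone. Spread between animals or lanes and the division of shared reads were not simulated.

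The members and gene lists were chosen with earlier results of these data known. In the Schwann cell and myelin list 1 marker is not reported here and was left out of the sum. Named are all members and their relatives, and from each pathway list the genes past 1.5-fold and the 2 largest differences at 5 FPKM or more. Hsd17b12, Tecr, Cyb5a, Slc25a1, Mcat, Srebf1, Mlxipl, Nr1h3, Insig2, Ppara, Thrsp, Slc27a1, Acsl1, Cers2, Cers6, Soat1, Far1, Pex5, Cdc20, Pitx3 and the marker genes given as examples were named after their values were seen. With 2 libraries each gene has 1 ratio, so genes of like pattern were not sought. Python 3.11.15, pandas 2.3.3, scipy 1.17.1 and Biopython 1.88 were used.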

Additional observations from a re-analysis of the deposited data

How the results depend on the processing

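No paired analysis was possible because each group has 1 library. The results were recomputed under 12 alternatives, 1 of them (removal of a trend with length, GC content and expression) chosen after seeing the data. Fads3 and Elovl3 were at least 1.5-fold higher in all 13 settings, and Scd2 in the 12 that gave it a value. No setting changed how shared reads were divided among the Scd genes. Scd1 passed 1.5-fold in 4, those that rescaled the libraries. Its log2 ratio ranged from 0.50 to 0.65, that of Fads3 from 0.819 to 1.004, Elovl6 from 0.27 to 0.47, Elovl1 from 0.24 to 0.43 and Elovl5 from -0.14 to -0.01. Fads1 ranged from -0.05 to 0.04. No direction of a member whose interval excludes 1 was reversed.

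The summed Scd ratio of 1.473 became 1.501 with the median log2 ratio set to 0, 1.57 with equal FPKM totals, with or without the 20 most abundant genes (1.566), 1.573 with totals that leave out the 10 members, 1.45 with the length trend removed and 1.41 with the trend of length, GC content and expression removed. It has no value where genes with shared reads were left out. The number of members past 2-fold was 0, and 1 (Fads3) with totals that leave out the members, which gave 147 higher and 70 lower genes in place of 106 and 79. The 185 genes past 2-fold became 912 at 1.5-fold, 477 with a pseudocount of 0.1, 29 with a pseudocount of 5, 69 with a mean of at least 5 FPKM and 379 with CPM. The length trend removed gave 144 higher and 58 lower. The cause of these shifts was not tested. Depth limits Scd3 and Fads2, which rest on under 40 counts.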

Other observations

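Genes that activate fatty acids and carry them to the elongases were mixed. Of 8 acyl-CoA synthetases and carriers compared, none passed 1.5-fold upwards and 1 passed it downwards, with a median log2 ratio of 0.13. That 1 was Slc27a2, which activates very long chains, at 94.4 FPKM in D3BWT and 56.5 FPKM in D3BKO (ratio 0.60, 0.56 to 0.64). Slc27a1 was lower as well, with 0.78 (0.73 to 0.83). Acsl5 had a ratio of 1.29 (1.21 to 1.37). Acsl1, the main long-chain synthetase of fat, was at 723 and 788 FPKM (ratio 1.09, 1.07 to 1.11).

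Enzymes that place the products into lipids were not past 1.5-fold in either direction in any of 12 genes compared, and their median log2 ratio was 0.02. With equal FPKM totals 1 of the 12 passed upwards, and with a pseudocount of 0.1 it was 2 of 12, as it was 2 of 14 by CPM. Dgat1, which completes triglycerides, had a ratio of 0.79 (0.75 to 0.84), and Dgat2 had 0.87 (0.85 to 0.88). Among ceramide synthases, Cers2, which takes the very long chains that Elovl1 makes, had a ratio of 1.067 (1.003 to 1.136). Cers6, which takes palmitate-length chains, had 9 counts in D3BWT and 34 in D3BKO (ratio 3.62, 1.70 to 8.59) at levels of 0.24 and 0.87 FPKM, under the limit for comparison. Soat1, which esterifies cholesterol, was at 0.72 and 1.55 FPKM with a ratio of 2.15 (1.41 to 3.34). Far1, which makes fatty alcohols for ether lipids, was at 3.23 and 4.92 FPKM with a ratio of 1.52 (1.21 to 1.93). Soat1 and Far1 have FPKM ratios above 1.5 and fall short of it on the log2 scale through the pseudocount of 1. Of 9 genes of peroxisomal oxidation of very long chains none was past 1.5-fold, with Abcd2 at 1.30 (1.23 to 1.38), Hsd17b4 at 1.23 (1.19 to 1.28) and Pex5 at 0.84 (0.77 to 0.90).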
